A study of Mus musculus with 7 samples.

Results

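The suppressor of cytokine signalling (SOCS) family comprises 8 genes in the mouse, Socs1 to Socs7 and Cish, and all 8 were measured among the 19938 genes of the array. Members were taken by name, as probe sets annotated with that gene symbol alone, and the probe set with the highest mean over the arrays stood for each gene. The series profiled macrophages sorted from the lamina propria of the colon (C57BL/6 mice, 6 weeks of age) on 7 Affymetrix arrays of total RNA. Il10ra_mKO (2 arrays, cells labelled resident) stands for the genotype CX3CR1cre:IL10Raflox/flox, in which Cre expressed from the Cx3cr1 locus deletes the floxed Il10ra gene in the cells that use that locus. Its partners were 3 resident arrays of CX3CR1gfp/+ mice, called WT here, which carry a GFP reporter in 1 Cx3cr1 allele. Il10_KO (1 array, cells labelled CX3CR1hi) stands for IL10-/- CX3CR1gfp/+ mice, and its partner was 1 CX3CR1hi array of CX3CR1gfp/+ WT mice. Il10ra_mKO and resident WT also differ in the inserted Cx3cr1 allele, Cre against GFP, and what the allele does and what the deletion does cannot be told apart. The labels name no separate animals or pools, so the spread between arrays of a group may be technical.

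Cytokine receptors of the JAK-STAT type have no kinase of their own. Ligand binding activates the attached JAK kinases, which phosphorylate the receptor and then STAT transcription factors, and STATs switch on SOCS genes among their targets. SOCS proteins close the loop: an SH2 domain binds phosphorylated receptors or kinases, and the C-terminal SOCS box recruits a ubiquitin ligase. SOCS1 and SOCS3 also hold a short kinase inhibitory region. SOCS1 is best known as the brake on interferon signalling, SOCS3 as the brake on IL-6 family receptors and as a gene that IL-10 induces in macrophages through STAT3, and CIS (the product of Cish) and SOCS2 as targets of STAT5.

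In the resident arrays 3 members, Socs1, Socs3 and Cish, had higher values in both Il10ra_mKO arrays than in every WT array. Their group means differed by 0.60 to 0.71 on the log2 scale. The lower mutant array exceeded the highest WT array by 0.65 for Socs1, 0.17 for Socs3 and 0.20 for Cish. Over all genes, 8.92% had both Il10ra_mKO arrays above all resident WT arrays. The other 5 members, Socs2, Socs4, Socs5, Socs6 and Socs7, did not have both mutant arrays outside the WT range, and none had both arrays below it (8.5% of all genes had). No member passed limma's test at an adjusted p under 0.05, which 0.00502% of all genes (1 gene) did. At an unadjusted p under 0.05, Socs1 and Cish were higher and no member was lower, against 4.06% of all genes higher and 3.86% lower. In the CX3CR1hi pair, Socs1 and Cish were again at least 1.5-fold higher in the Il10_KO array, which 2.7% of all genes were.

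Promoter sequences are shown for Socs1, Socs3 and Cish because these are the members whose Il10ra_mKO arrays lay above WT. The sequences are RefSeq's for build GRCm38.p6 and run from 250 bases before the annotated transcript start to 30 bases after it, in the direction of transcription. Capitals mark matches, on either strand, to TTCNNNGAA, the letters of a STAT site, or to GAAANNGAAA, the letters of an interferon-response element. The first motif is its own reverse complement and the motifs did not overlap each other in these windows. The Socs1 window lies on the minus strand at chr16:10785507-10785786, the Socs3 window on the minus strand at chr11:117969337-117969616, and the Cish window on the plus strand at chr9:107296409-107296688. The Socs3 gene is annotated up to base 117970336, upstream of its window, so that window lies at a start inside the annotated gene.
Socs1: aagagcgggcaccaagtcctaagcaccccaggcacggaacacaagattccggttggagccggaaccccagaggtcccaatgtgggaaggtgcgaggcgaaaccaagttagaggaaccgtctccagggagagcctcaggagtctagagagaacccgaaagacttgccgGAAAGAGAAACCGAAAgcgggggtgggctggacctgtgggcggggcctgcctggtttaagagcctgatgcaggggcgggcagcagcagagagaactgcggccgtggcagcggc
Socs3: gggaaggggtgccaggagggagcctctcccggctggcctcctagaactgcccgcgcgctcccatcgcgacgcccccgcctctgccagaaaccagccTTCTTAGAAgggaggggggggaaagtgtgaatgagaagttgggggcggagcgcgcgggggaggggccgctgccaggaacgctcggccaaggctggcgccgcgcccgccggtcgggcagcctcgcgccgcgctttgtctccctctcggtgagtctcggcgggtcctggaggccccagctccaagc
Cish: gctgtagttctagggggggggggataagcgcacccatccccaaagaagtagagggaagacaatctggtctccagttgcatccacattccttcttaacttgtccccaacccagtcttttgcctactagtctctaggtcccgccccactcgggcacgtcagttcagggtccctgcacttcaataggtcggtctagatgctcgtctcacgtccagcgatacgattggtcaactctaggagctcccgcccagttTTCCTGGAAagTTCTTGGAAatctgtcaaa
Socs1 held 2 overlapping matches to the interferon-response letters, GAAAGAGAAA and GAAACCGAAA, which began at positions -83 and -77 from the transcript start, and no match to the STAT letters. Socs3 held 1 match to the STAT letters, TTCTTAGAA at -154. Cish held 2, TTCCTGGAA from the first transcribed base (position 1) and TTCTTGGAA from position 12. The Socs4 window, on the plus strand of chromosome 14, held a match to neither. Of 32851 promoter windows of the same length in the table, 7.83% held the STAT letters and 3.28% the interferon-response letters. A match describes these letters only. No binding was measured. The promoter table was matched by symbol and gave a window for 4 of the 8 members.

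Across the whole series the arrays were alike in overall level, with medians of log2 5.77 to 5.92. The levels are the authors' RMA values. The labels' extraction protocol names a different RNA kit for the CX3CR1hi samples than for the resident ones, as far as it numbers them in series order, so sort label and kit cannot be told apart. Of all genes, 60.4% had an identical deposited value in at least 2 of the 5 resident arrays, whereas 2 genes had one in a resident and a CX3CR1hi array, so mutants were compared with WT within a sort label only. Limma takes its spread from the resident arrays, so these ties can bear on the standard errors, intervals and p-values of the resident comparison. By how much was not tested. Il10ra, the targeted gene, stood at log2 8.05 and 7.04 in Il10ra_mKO and at 10.56 to 11.12 in resident WT. It stood at 11.61 in the Il10_KO array and 11.32 in the CX3CR1hi WT array.

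**Figure D1:**
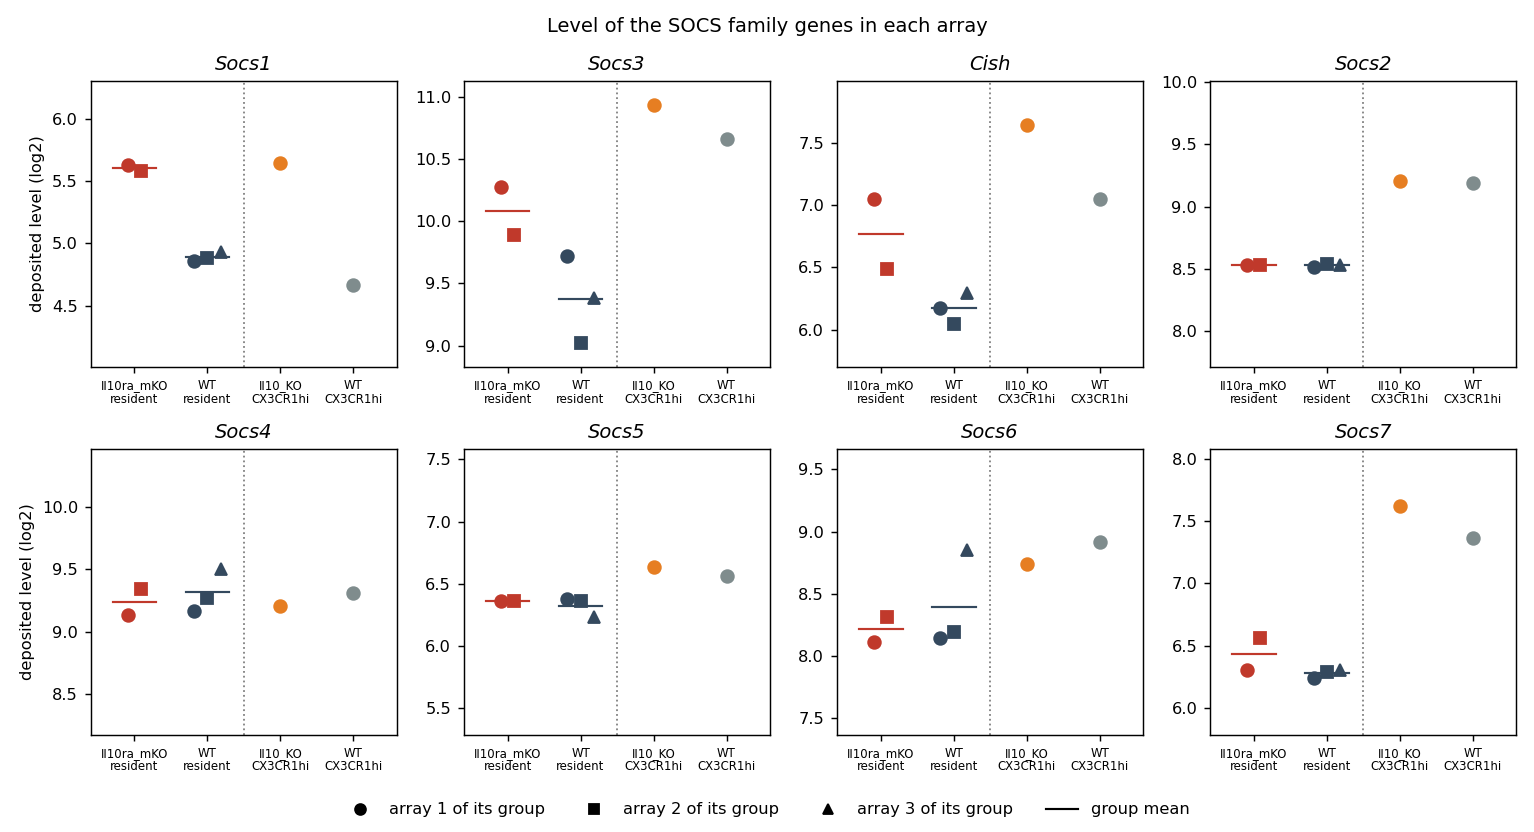
Deposited log2 level (vertical axis, each panel spanning the same number of log2 units) of the 8 SOCS family genes in each of the 7 arrays, with a horizontal bar at the mean of groups with more than 1 array. In Socs1, Socs3 and Cish both Il10ra_mKO points lie above the 3 resident WT points; the dotted line divides the sort labels, between which no level is compared.

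Socs1, the inhibitor of interferon receptor kinases, stood at log2 5.63 and 5.58 in the Il10ra_mKO arrays, against 4.86, 4.89 and 4.93 in resident WT. The groups were apart by 0.65, while the standard deviation of the 3 WT arrays was 0.04. All 7 values lay below log2 5.86, the median of all deposited values, so Socs1 was a dim probe set in every array, and RMA compresses differences at that level. The difference was 0.71 ± 0.03 (SE, 2 against 3 arrays, limma), a 1.64-fold change. It was the member with the smallest p in this comparison, with an unadjusted p of 2.71e-05 and an adjusted p of 0.0902. The 95% interval ran from 0.63 to 0.80. Its adjusted p ranged from 0.0156 to 0.553 over 10 alternatives, in all of which the difference lay between 0.69 and 0.82.

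In the CX3CR1hi pair Socs1 stood at log2 5.65 in Il10_KO and 4.66 in WT. The difference of 0.98 corresponds to 1.97-fold and has no replicate check, since each side is 1 array. The limma fit takes the spread for this pair from the resident arrays, in which 60.4% of genes hold tied values, since the pair has no replicates. Its adjusted p, 0.0067 for Socs1 and under 0.05 for 7.9% of all genes, is therefore no measure of the spread in CX3CR1hi cells and is not read as a test of Il10_KO. With the arrays quantile-normalized together the difference was 0.72 and the adjusted p 0.0948, and 21 genes passed in place of 1576. The Il10ra_mKO effect on Socs1 minus the Il10_KO effect was -0.27, and 0.11 after that normalization. No member passed this test of the difference between the mutant effects at an adjusted p under 0.05, which 4.7% of all genes did, and that test rests on the same borrowed spread.

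Socs3, whose protein restrains gp130 receptors and which IL-10 itself induces in macrophages, stood at log2 10.27 and 9.89 in Il10ra_mKO and at 9.72, 9.02 and 9.38 in resident WT. The lower mutant array exceeded the highest WT array by 0.17, less than the WT standard deviation of 0.35. The difference was 0.71 ± 0.27 (SE), 1.63-fold, with a 95% interval from -0.04 to 1.46 and an adjusted p of 0.666 (limma, unadjusted p = 0.059). It was close to that of Socs1 in size, but the WT arrays were more widely spread. The CX3CR1hi arrays had Socs3 at 10.94 in Il10_KO and 10.66 in WT, a difference of 0.28 with no replicate check. A dimmer Socs3 probe set, annotated with another accession, was at 6.91 and 6.59 in Il10ra_mKO and at 6.57, 6.27 and 6.57 in resident WT, a difference of 0.28 in the same direction.

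Cish, a STAT5 target whose protein binds phosphorylated cytokine receptors, stood at log2 7.05 and 6.49 in Il10ra_mKO and at 6.18, 6.05 and 6.29 in resident WT. Array 1 of Il10ra_mKO stood well above the rest, and array 2 exceeded the highest WT array by 0.20. The difference was 0.60 ± 0.20 (SE), 1.51-fold, with an adjusted p of 0.604 (limma, unadjusted p = 0.0445). It was 0.32 without Il10ra_mKO array 1 and 0.88 without array 2. Among the CX3CR1hi arrays Cish stood at 7.65 in Il10_KO and 7.05 in WT, again a difference of 0.60, with no replicate check.

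**Figure D2:**
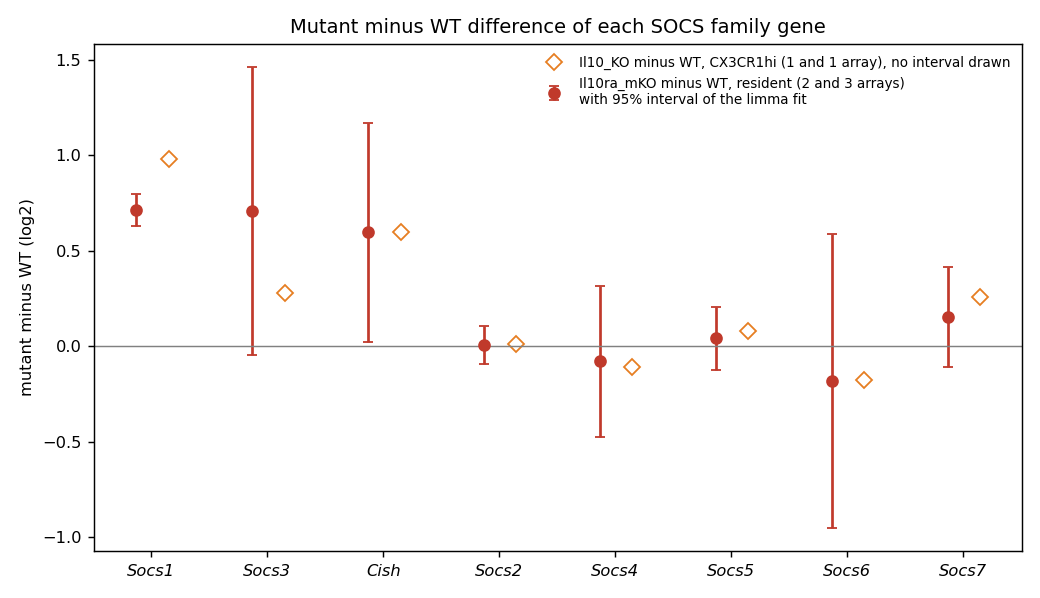
Mutant minus WT difference in log2 units for each SOCS family gene, filled circles for the resident comparison with the 95% interval of the limma fit and open diamonds for the CX3CR1hi pair of 1 array each. Socs1, Socs3 and Cish lie at 0.60 to 0.71 in the resident comparison and the other 5 between -0.18 and 0.15.

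Socs2, a second STAT5 target that limits growth hormone signalling, showed almost no difference. Its level was 8.53 in both Il10ra_mKO arrays and 8.51, 8.54 and 8.53 in resident WT, and the value of WT array 3 was identical to both mutant values as deposited. The difference was 0.00 ± 0.04 (SE), with a 95% interval of -0.10 to 0.10. It stood at 9.20 in Il10_KO and 9.19 in CX3CR1hi WT. A second, dimmer Socs2 probe set differed by 0.00 as well, with 6.19 and 6.13 in Il10ra_mKO and 6.11 to 6.21 in WT. The differences of Cish and Socs2 were not tested against each other.

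Socs4 and Socs5, whose products have long N-terminal regions and are linked to epidermal growth factor receptor turnover, had overlapping groups. Socs4 stood at log2 9.13 and 9.34 in Il10ra_mKO and at 9.16, 9.27 and 9.51 in resident WT, a difference of -0.08 with a 95% interval of -0.47 to 0.31. Socs5 stood at 6.37 in both Il10ra_mKO arrays and at 6.38, 6.37 and 6.23 in WT, a difference of 0.04 with an interval of -0.13 to 0.21. The WT array 2 value of Socs5 was identical to both mutant values. Socs4 stood at 9.20 in Il10_KO and 9.31 in CX3CR1hi WT, and Socs5 at 6.64 in Il10_KO and 6.56 in that WT array. These differences were -0.11 and 0.08.

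Socs6 and Socs7, the members that act mainly on receptor tyrosine kinases and adaptor proteins, did not have both mutant arrays outside the WT range either. Socs6 stood at log2 8.11 and 8.32 in Il10ra_mKO and at 8.14, 8.19 and 8.85 in resident WT, where array 3 stood apart from the other arrays. Its difference was -0.18 with an interval of -0.95 to 0.59, and it was 0.05 without WT array 3. A second Socs6 probe set annotated with the same accessions had 7.73 and 8.20 in Il10ra_mKO and 7.59, 7.88 and 8.45 in WT. The remaining, dim set was at 5.12 and 5.08 in Il10ra_mKO and at 5.06 to 5.08 in WT. The brightest set stood at 8.74 in Il10_KO and 8.92 in CX3CR1hi WT. The other sets went the other way there, with the second at 8.47 in Il10_KO and 8.35 in WT. The dim set was at 4.93 in Il10_KO and 4.77 in CX3CR1hi WT. Socs7 stood at 6.30 and 6.56 in Il10ra_mKO and at 6.24, 6.29 and 6.30 in WT. Array 1 of Il10ra_mKO was identical to WT array 3, and array 2 lay above every WT array for Socs7. Its difference was 0.15 with an interval of -0.11 to 0.41, and it was 0.28 without Il10ra_mKO array 1 and 0.02 without array 2. Socs7 stood at 7.62 in Il10_KO and 7.37 in CX3CR1hi WT.

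As a family, 6 of 8 members had a difference above 0 in the resident comparison and 6 of 8 in the CX3CR1hi pair. Over all genes 48.8% and 56.3% were above 0. The median difference of the family was 0.10 in the resident comparison, against 0.00 over all genes, and 0.17 in the CX3CR1hi pair, against 0.03 over all genes. No member reached a 2-fold higher value in Il10_KO (0.692% of all genes did), and Socs1 came nearest. Socs1 and Cish both lay above resident WT in both Il10ra_mKO arrays and were at least 1.5-fold higher in Il10_KO, as 1.75% of all genes were.

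The sample numbers in the titles fall into runs of neighbouring numbers, and each run of resident arrays holds both genotypes. The labels do not say that a run is a batch. Array 1 of Il10ra_mKO shares its run with WT arrays 1 and 2, and array 2 with WT array 3. Within these runs Socs1 was 0.76 and 0.65 higher in Il10ra_mKO, Socs3 0.90 and 0.51 higher, and Cish 0.94 and 0.20 higher. Since both mutant arrays of these 3 genes lie above every WT array, the within-run differences could only be positive, and their sizes alone are of use. With the run as a block in the fit, 1 member (Socs1) had an unadjusted p under 0.05 in place of 2.

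**Figure D3:**
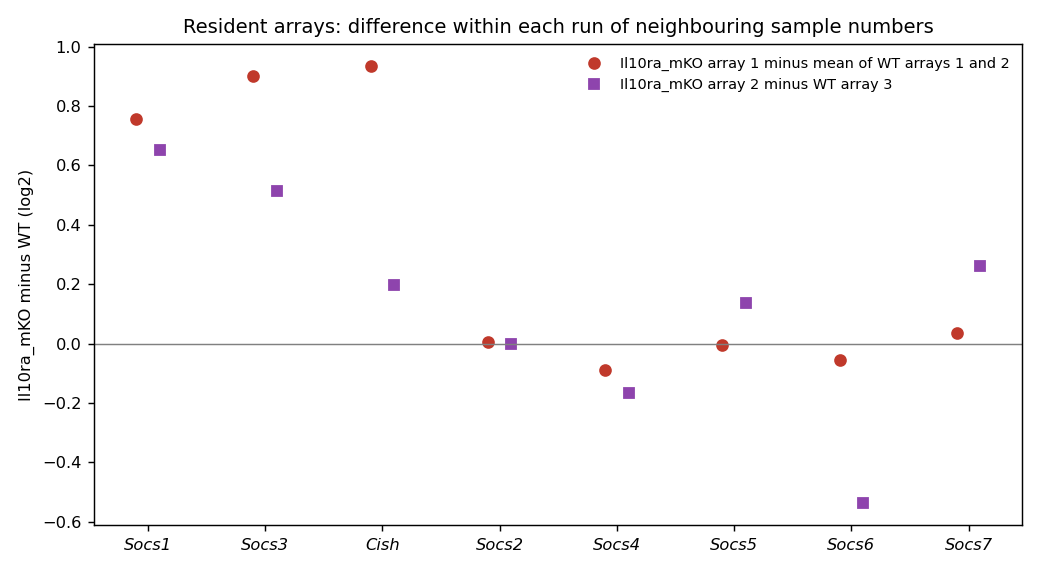
Difference between Il10ra_mKO and WT resident arrays in log2 units within each run of neighbouring sample numbers, circles for the run that holds Il10ra_mKO array 1 and squares for the run that holds array 2. Cish stands at 0.94 and 0.20 and Socs1 at 0.76 and 0.65; genes whose groups do not overlap can only lie on one side of 0 here.

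Other genes of the pathway were described from lists that were chosen with earlier results of these data known, by the count whose groups were apart (8.92% of all genes higher and 8.5% lower) and by the median. Among the cytokines, 5 of 22 measured genes were higher in both Il10ra_mKO arrays than in all WT arrays and 1 lower, with a median difference of 0.08. Only 8 of the 22 exceeded the median of all values in any array, so these figures mostly describe dim genes. Il23a and Il12b, which encode subunits of IL-23, did not pass (limma, adjusted p = 0.243 and 0.172). Il23a stood at log2 7.70 and 7.85 in Il10ra_mKO and at 5.75, 5.14 and 5.80 in WT, and Il12b at 7.53 and 7.81 in Il10ra_mKO and at 5.95, 5.68 and 5.60 in WT. Their WT values lay near or below the median of all values, so the size of these differences is uncertain. Of 23 receptor chains 6 were higher and 4 lower, with a median of 0.11. Il12rb1, a receptor chain for IL-12 and IL-23, stood at 7.04 and 6.92 in Il10ra_mKO and at 5.71, 5.29 and 5.56 in WT, all 3 below that median (adjusted p = 0.219, limma). The targeted Il10ra was 9.63-fold lower (adjusted p = 0.243, limma).

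All 9 measured JAK and STAT genes had a difference above 0 in both comparisons, as 35.7% of all genes had, with medians of 0.30 in Il10ra_mKO and 0.33 in Il10_KO against 0.00 and 0.03 over all genes, and 5 of the 9 had groups apart in the resident arrays. Stat2, which carries type I interferon signals, stood at log2 9.64 and 10.07 in Il10ra_mKO and at 8.69, 8.75 and 9.12 in resident WT. Jak2 stood at 9.60 in both Il10ra_mKO arrays and at 8.27, 8.63 and 9.16 in WT. Neither passed (limma, adjusted p = 0.416 for Stat2 and 0.585 for Jak2). Of 13 other inhibitors of the pathway, 3 had groups apart and higher, with a median of 0.06. Ptpn1, a phosphatase that acts on JAK2 and TYK2, was 1.65-fold higher and the ubiquitin ligase gene Cblb 1.63-fold higher. Of the 8 measured genes for ubiquitin ligase partners of the SOCS box, 0 had groups apart, the median difference was 0.06, and 0 had an unadjusted p under 0.05 by limma. The neddylation genes Ube2f and Nedd8 differed most in that list, by 0.23 and 0.17.

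Genes known to respond to STAT factors, in either direction, were grouped by factor, and Bcl6 and Pim1 are in both lists. Of 20 STAT3-responsive genes 6 were higher and 0 lower, with a median of 0.27. Among them Nfil3 stood at log2 9.85 and 9.52 in Il10ra_mKO and at 8.17, 7.33 and 9.09 in WT, and the stress-induced gene Ddit4 at 8.83 and 9.33 in Il10ra_mKO and at 7.29, 7.82 and 7.80 in WT. Of 14 STAT5-responsive genes, which include Cish and Socs2, 3 were higher and 1 lower, with a median of 0.24. Ccl22, a chemokine, was 2.07-fold higher in Il10ra_mKO, and Lifr, a chain of the LIF receptor, differed by -0.65 with overlapping groups. Of 12 receptor tyrosine kinases and adaptors known to bind SOCS proteins 3 were higher and 3 lower, with Egfr at -0.85 and the insulin receptor gene Insr at -0.50. Of 7 measured TLR adaptors and kinases 4 were higher and 0 lower, with a median of 0.23, and Traf6 and Tirap differed by 0.54 and 0.35.

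**Figure D4:**
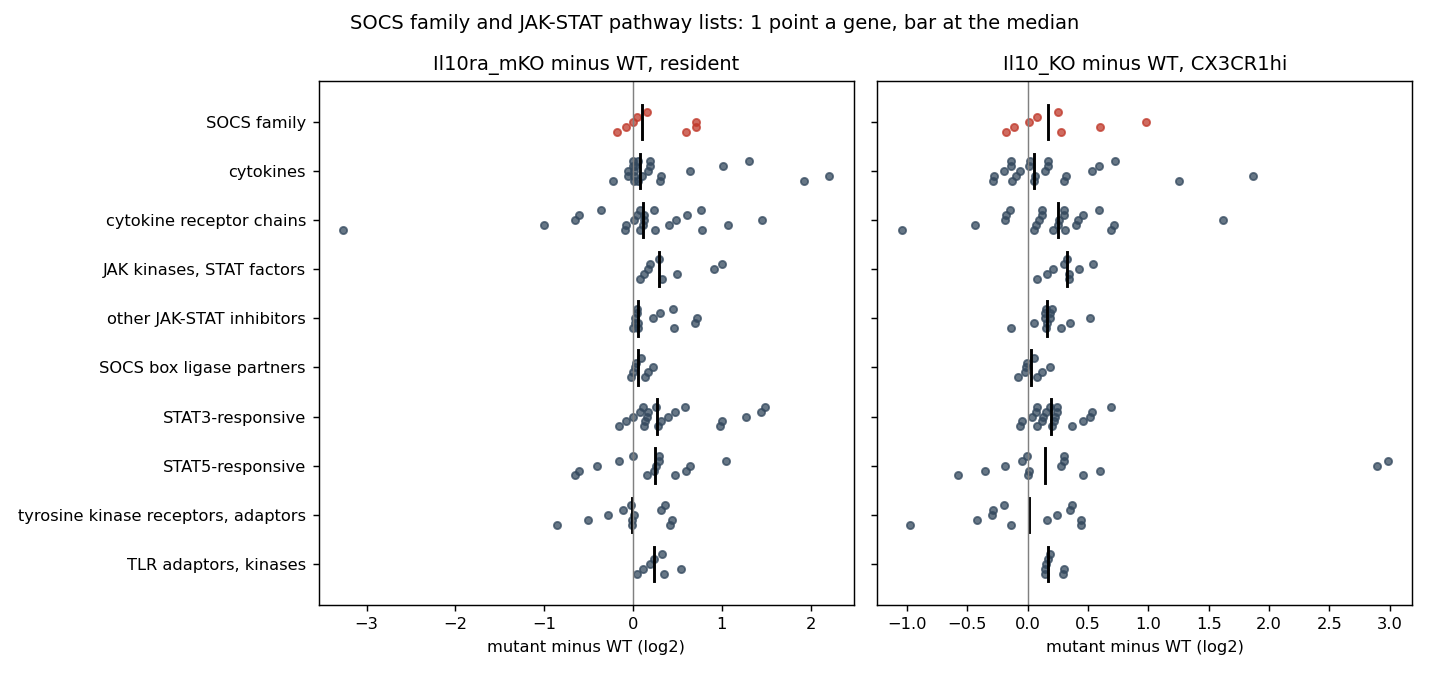
Mutant minus WT difference in log2 units (horizontal axis) of each measured gene in the SOCS family (red) and in the JAK-STAT pathway lists, for the resident comparison on the left and the CX3CR1hi pair on the right, with a black bar at the median of each list. The median of the JAK kinases and STAT factors is 0.30 on the left and 0.33 on the right, and that of the SOCS box partners is 0.06 and 0.02.

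Genes with a profile like that of a member were ranked by Pearson r over the 7 arrays for the 3 members whose range was at least 1 log2 unit. The correlation pools both sort labels, and what the step between them adds to it was not tested. For Cish the closest of 3750 genes was Tifa, an adaptor of TRAF6, at r = 0.9997, followed by Anxa9 (0.976) and Bin3 (0.976). Tifa stood at log2 9.68 and 9.24 in Il10ra_mKO and at 8.85 to 9.05 in resident WT, and at 10.17 in Il10_KO and 9.71 in CX3CR1hi WT. For Socs3 the closest were Pank4 (0.974), Eid3 (0.971) and Clec2d (0.971). Cish and Socs7 reached that range only through the step between the sort labels. Cish ran from 6.048 to 7.047 in the resident arrays, just under 1 log2 unit. Socs7 varied less, with 6.24 to 6.56 in the resident arrays, 7.62 in Il10_KO and 7.37 in CX3CR1hi WT, so its closest genes are not given. The genes named for Cish and Socs3 each varied by less than 1 log2 unit within either sort label. Their r values therefore cannot be read as likeness within a sort label.

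Markers of other cell types differed between the same arrays. The mean of 12 measured macrophage markers was log2 12.05 and 12.24 in Il10ra_mKO, 11.92 to 12.03 in resident WT, 12.26 in Il10_KO and 12.00 in CX3CR1hi WT. All 15 epithelial markers were measured, and 14 had a lower mean in Il10ra_mKO, with a list mean of 10.72 and 8.89 against 10.66 to 11.05 in resident WT. It was 10.82 in Il10_KO and 11.41 in CX3CR1hi WT. The mean of 9 monocyte markers was 7.91 and 7.40 in Il10ra_mKO and 6.64 to 7.00 in resident WT, with 7 of 9 higher. F10, Hp and Ms4a4c differed most of that list in Il10ra_mKO, by 3.12, 1.73 and 1.57. Ccr2 differed by 0.10 and Vcan by -0.25. Vcan, Fcnb and Chil3 lay below the median of all values in every array. The monocyte mean was 6.79 in Il10_KO and 6.55 in CX3CR1hi WT. The mean of 10 neutrophil markers was 6.37 and 5.92 in Il10ra_mKO and 5.77 to 5.85 in WT, with 9 of 10 higher. It was 6.20 in Il10_KO and 5.85 in CX3CR1hi WT. Cxcr2, Camp, Ngp and Mpo lay below that median in every array. S100a8, which is also on the monocyte list, S100a9 and Retnlg exceeded it in Il10ra_mKO array 1 only. Ly6g and Csf3r had the largest differences of the list in Il10ra_mKO, 1.28 and 1.07, and Mmp9 differed by -0.88. In Il10_KO these genes differed by 0.16, 0.72 and 1.71. The mean of 8 B and plasma cell markers was 7.39 and 7.83 in Il10ra_mKO and 7.06 to 7.27 in WT, with 5 of 8 higher. It was 6.69 in Il10_KO and 6.74 in CX3CR1hi WT, with 4 of 8 higher. The B cell genes Ms4a1, Cd79a, Pax5 and Cd79b differed by 1.55, 1.14, 0.73 and 0.43 in Il10ra_mKO. In Il10_KO they differed by 0.16, -0.12, 0.09 and 0.50. The plasma cell genes went both ways in Il10ra_mKO, with Jchain, Sdc1 and Tnfrsf17 at -0.17, -0.26 and -0.26 and Mzb1 at 0.50.
Dendritic cell markers, all 10 measured, had a mean of 6.53 and 6.79 in Il10ra_mKO and 6.20 to 6.47 in resident WT, and of 6.34 in Il10_KO and 6.12 in CX3CR1hi WT. In the resident arrays 5 of them had groups apart and higher and 2 apart and lower, and Zbtb46, Flt3 and Itgae lay below the median of all values in every array. Clec9a differed by 2.91 in Il10ra_mKO and 2.63 in Il10_KO, Ccr7 by 2.31 and 2.06, and Cd209a by -2.22 and -2.43. The mean of 9 T cell and innate lymphoid markers was 6.04 and 6.15 in Il10ra_mKO and 5.86 to 6.07 in resident WT, and 6.08 in Il10_KO and 5.78 in CX3CR1hi WT. All 9 differed by more than 0 in both comparisons, while 6 of them, Cd3d among them, lay below the median of all values in every array. Fibroblast and muscle markers were lower, with 6.45 and 6.37 in Il10ra_mKO and 6.82 to 7.24 in WT, and 11 of 12 lower. Their mean was 6.25 in Il10_KO and 6.89 in CX3CR1hi WT.
Array 1 of Il10ra_mKO had the higher Socs1 (5.63 against 5.58), Socs3 and Cish values of the 2. It also had the highest monocyte and neutrophil means of the 5 resident arrays, while the dendritic cell, T cell and B cell list means were higher in array 2. Among the resident WT arrays, array 3 had the highest Socs1 and Cish, and the highest macrophage, monocyte, T cell and endothelial list means. Array 1 had the highest Socs3, and the highest neutrophil, dendritic cell, B cell and mast cell list means. Socs1 ran only from 4.86 to 4.93 in these arrays, and no list was tested against a member. The part of epithelial cells, fibroblasts, monocytes, neutrophils, dendritic cells, T cells and B cells in the SOCS values was not tested, and a change in the make-up of the sorted cells and a change of RNA per cell cannot be told apart in bulk RNA.

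**Figure D5:**
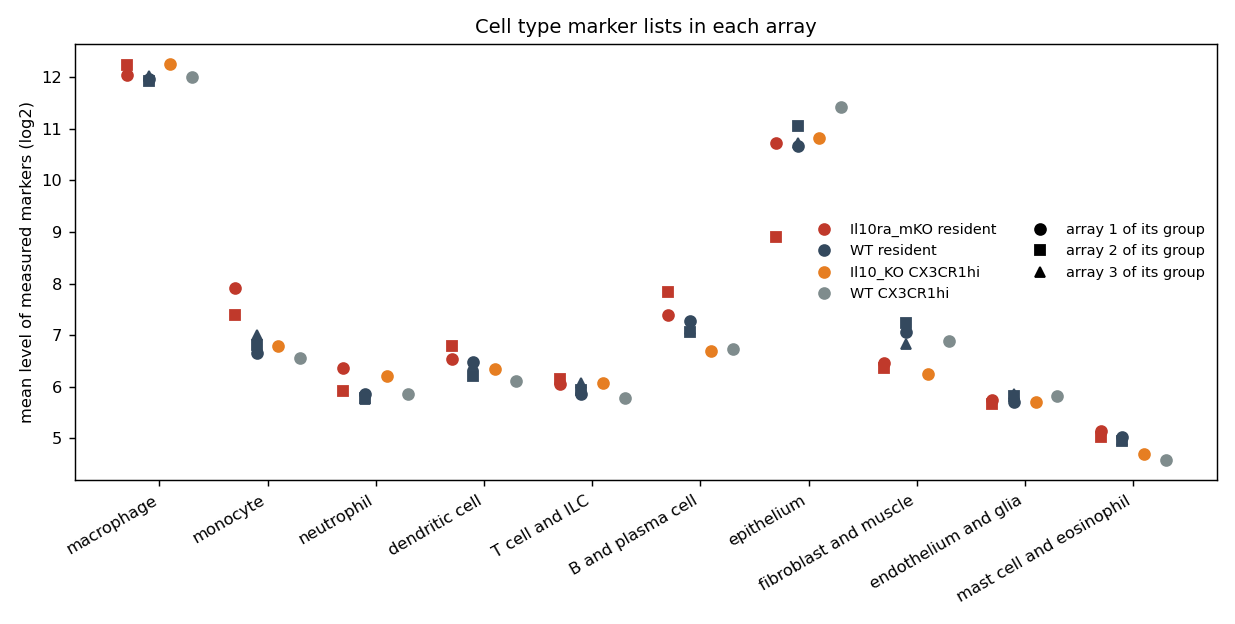
Mean log2 level of the measured markers of each cell type list (vertical axis) in each of the 7 arrays, coloured by group and shaped by array number within the group. The epithelial mean is 8.89 in Il10ra_mKO array 2 and 10.66 or more in the other arrays, and the monocyte mean of both Il10ra_mKO arrays lies above the 3 resident WT arrays.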

How the data were processed

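Expression was measured on 7 Affymetrix arrays of sorted colonic macrophages. The deposited values are log2 levels, for which the submitters' processing notes name RMA and Partek. Versions, build and the extent of joint summarisation are not stated there. Of 35399 rows, 21789 had 1 gene symbol, 1621 several and 11989 none; 21698 were matched by gene ID to RefSeq (GRCm38.p6). The brightest row per gene left 19938 genes, and 12 rows named a member. Differences were fitted with limma 3.58.1 in R 4.3.3 (lmFit, eBayes with a variance trend) on 4 group means and all 7 arrays, with 3 residual degrees of freedom, two-sided p-values and Benjamini-Hochberg adjustment over all genes at 0.05. The script was tested on simulated data. Array numbers follow accession order and pair nothing; no pair of arrays was identical. Alternatives were a brightness filter (10558 genes, 7 members), no variance trend, mean of rows, quantile normalization, the run of sample numbers as a block, resident arrays only and leaving out each resident array. The text names all members, Il10ra, the 2 genes of each pathway list with the largest difference (members aside), and the 3 genes most correlated with a member. Members and lists were chosen with earlier results of these data known. The number of arrays limits the precision. A pathway list named in the design is not reported here.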

Additional observations from a re-analysis of the deposited data

How the results depend on the processing

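The count of genes with an adjusted p under 0.05 depended strongly on the settings. For Il10ra_mKO it was 1, and 12 with the brightness filter, 4 without a variance trend, 114 after quantile normalization, 0 with the run as a block, and 0 to 267 when 1 resident array was left out. For Il10_KO it was 1576, and 2, 758, 21 and 446 under the same settings in that order, and 559 to 2788 with 1 array left out. For the difference between the mutant effects it was 937, and 1, 30, 8 and 0, and 0 to 2200 with 1 array left out. Leaving out an Il10ra_mKO array leaves a lone mutant array, assumed to vary like the others.

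Members with an unadjusted p under 0.05 (limma) in Il10ra_mKO numbered 2, Socs1 and Cish, and 1, Socs1, with the run as a block. With the brightness filter, which leaves out Socs1, they were Socs3 and Cish. Members under that threshold were Socs1 and Socs3 without WT array 1, and Socs1 alone without WT array 2 or 3. In Il10_KO they numbered 1, and 0 with the brightness filter, which leaves out Socs1, and 1 to 3 with 1 array left out. For the difference between effects they numbered 1, and 0 with the filter, 0 after quantile normalization, and 1 to 2 with 1 array left out.

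In the CX3CR1hi pair only quantile normalization and the mean of rows can move a difference, and the other settings change its borrowed spread alone. Socs2 turned to -0.035 in Il10ra_mKO and -0.060 in Il10_KO after quantile normalization, and Socs6 to 0.033 in Il10_KO with the mean of its rows. With 1 resident array left out, the Il10ra_mKO difference ran from -0.0023 to 0.0086 for Socs2, from -0.18 to 0.026 for Socs4, from -0.0062 to 0.068 for Socs5 and from -0.31 to 0.048 for Socs6. The difference between effects turned to 0.11 for Socs1, 0.025 for Socs2, 0.021 for Socs5 and 0.011 for Socs6 after quantile normalization, and to -0.010 for Socs4 with the run as a block. With 1 array left out it ran from -0.073 to 0.14 for Socs4, -0.13 to 0.23 for Socs6, -0.23 to 0.030 for Socs7 and -0.28 to 0.28 for Cish. The causes were not tested. The labels carry no replicate numbers that the groups share, and the run of sample numbers was the sole block fitted.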
